A study of Mus musculus with 75 samples.

Results

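Voltage-gated sodium and calcium channel subunits were taken as every gene whose symbol is Scn followed by a digit, or Cacna, Cacnb, Cacng or Cacna2d followed by a digit. The rule used names only, and it found 40 genes, 14 of sodium channels and 26 of calcium channels, among 37310 gene identifiers in the cortex and nuclei count files and 55487 in the hippocampus files. All 40 were present in both kinds of file. The series holds 75 samples of mouse tissue, nuclei and cells labelled ES, wild type or with altered Dnmt3a. Dnmt3a is a DNA methyltransferase made as a long isoform (Dnmt3a1) and a short isoform (Dnmt3a2). The 26 RNA libraries of the series, in 10 groups, were used here. All RNA came from C57BL/6 mice at postnatal day 21.

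In cerebral cortex, 3 Dnmt3a1-/- libraries (labelled 3a1KO) were compared with 3 plain-numbered wild type libraries. A further 2 Dnmt3a2-/- libraries (3a2KO) were set against the 2 wild type libraries of the r series. For the Dnmt3a1_delta_N genotype (3a1dN), 3 libraries were set against the 3 wild type libraries of the n series. Hippocampus had 3 Dnmt3a1-/- and 3 wild type libraries. Cortical neuron nuclei, sorted with an antibody to the neuronal protein NeuN, had 2 libraries labelled Dnmt3a1-/- and 2 wild type libraries. The labels name no Cre driver, do not say whether each library is 1 animal, and do not tie a wild type series to a mutant. The p-values below therefore measure the spread between libraries.

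Voltage-gated sodium channels carry the rising phase of the action potential. Their pore is a single large alpha subunit, held at the axon initial segment by ankyrin G and joined by small beta subunits. Voltage-gated calcium channels share much of that plan. Their alpha1 pore belongs to the L-type Cav1 class, the presynaptic Cav2 class that triggers transmitter release, or the low-threshold T-type Cav3 class. In the Cav1 and Cav2 classes an intracellular beta and an extracellular alpha2delta subunit set the number of pores at the membrane. The gamma genes were named for a muscle calcium channel subunit, but most of those expressed in brain encode TARPs, proteins that carry AMPA-type glutamate receptors to the synapse.

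Neighbouring genes among the members lie in clusters. In the GRCm38.p6 RefSeq gene table, chromosome 2 carries Scn3a, Scn2a, Scn1a, Scn9a and Scn7a in that order, and chromosome 9 carries Scn10a and Scn11a side by side and, elsewhere, Scn2b beside Scn4b. Of the 40 members, 30 had promoter sequence in the RefSeq table of that build. Dnmt3a encodes an enzyme that methylates cytosine, often within CG dinucleotides, and the 250 bases before the start are shown for the member with the largest rise and for 2 of the members that fell most clearly in Dnmt3a1-/- cortex. They run 5′ to 3′ on the gene's strand, and capitals mark each CG. The Scn10a stretch is chr9:119719033-119719282 on the minus strand, that of Scn2b is chr9:45117626-45117875 on the plus strand, and that of Cacna2d1 is chr5:15934441-15934690 on the plus strand.
Scn10a: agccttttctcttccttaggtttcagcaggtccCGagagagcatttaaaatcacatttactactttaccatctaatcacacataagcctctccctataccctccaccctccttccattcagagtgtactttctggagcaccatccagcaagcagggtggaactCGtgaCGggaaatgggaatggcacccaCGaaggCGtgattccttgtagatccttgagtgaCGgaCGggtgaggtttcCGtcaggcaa
Scn2b: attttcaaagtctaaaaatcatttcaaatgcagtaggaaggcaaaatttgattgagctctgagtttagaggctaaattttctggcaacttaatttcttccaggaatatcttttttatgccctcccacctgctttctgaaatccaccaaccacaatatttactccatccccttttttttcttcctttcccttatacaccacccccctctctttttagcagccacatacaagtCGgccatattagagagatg
Cacna2d1: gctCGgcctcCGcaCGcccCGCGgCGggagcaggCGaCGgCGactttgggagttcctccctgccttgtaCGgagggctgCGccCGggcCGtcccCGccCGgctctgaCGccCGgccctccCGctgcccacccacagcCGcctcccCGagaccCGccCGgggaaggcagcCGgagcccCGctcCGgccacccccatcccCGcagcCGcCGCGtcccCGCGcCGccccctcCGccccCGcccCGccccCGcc
The Scn10a stretch holds 8 CG, and 43% of the 32841 promoter stretches in the table hold at least as many. Cacna2d1 holds 36, a number reached by 2.58% of stretches, whereas Scn2b holds 1, and 92.1% of stretches have that many or more. Among the 21 members with 1 listed start, the 9 that fell in Dnmt3a1-/- cortex held from 1 to 36 CG (median 8), and the 7 tested there and not called held from 0 to 34 (median 9). The count of these letters says nothing of methylation, which was not analysed here.

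Gene counts per library ranged from 8.7 M to 39.0 M. Levels are given as CPM, the counts of a gene per M counts assigned to genes in that library, and are not corrected for gene length, so they are compared between libraries and not between genes. Fold changes are log2 values from edgeR's quasi-likelihood fit over all genes, with their standard error (SE), and a gene is called when its Benjamini-Hochberg adjusted p is under 0.05. Dnmt3a itself, counted over the whole gene, stood at 73.2, 80.7 and 74 CPM in the Dnmt3a1-/- cortex libraries and at 152, 165 and 146 in the wild type (log2 -1.02 ± 0.07, SE, edgeR adjusted p = 1.2e-05), and it fell by 1.04 ± 0.09 in hippocampus (edgeR adjusted p = 0.00011). In the nuclei it did not follow the label, at 382 and 369 CPM against 405 and 399 in the wild type, so those libraries are called "labelled" Dnmt3a1-/-. In 3a1dN it read 135, 139 and 139 CPM against 147, 162 and 163, and in 3a2KO 132 and 144 against 153 and 145, and neither difference was called.

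In cortex without Dnmt3a1, 16 of the 35 members tested changed: 13 were lower and 3 were higher. The 13 included the main pore genes of central neurons, all 3 Cav2 calcium channels, and the accessory genes Scn2b, Scn3b, Cacna2d1, Cacng2 and Cacng3. Most falls were modest, between -0.27 and -0.51 on the log2 scale, while the sensory-type sodium channel gene Scn10a rose from a very low level. Of all 15933 genes tested in that comparison, 17.9% were called, 8.95% higher and 8.91% lower. The median over the 35 members was -0.22, against 0.01 over all genes tested. Well-expressed genes are called more often, and more of them lower than higher. Of the 5703 genes averaging 5 or more in log2 CPM, 25.4% were called, 543 higher and 903 lower (median -0.04). Of the 25 members at that level 14 were called, 2 higher and 12 lower (median -0.32).

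**Figure D1:**
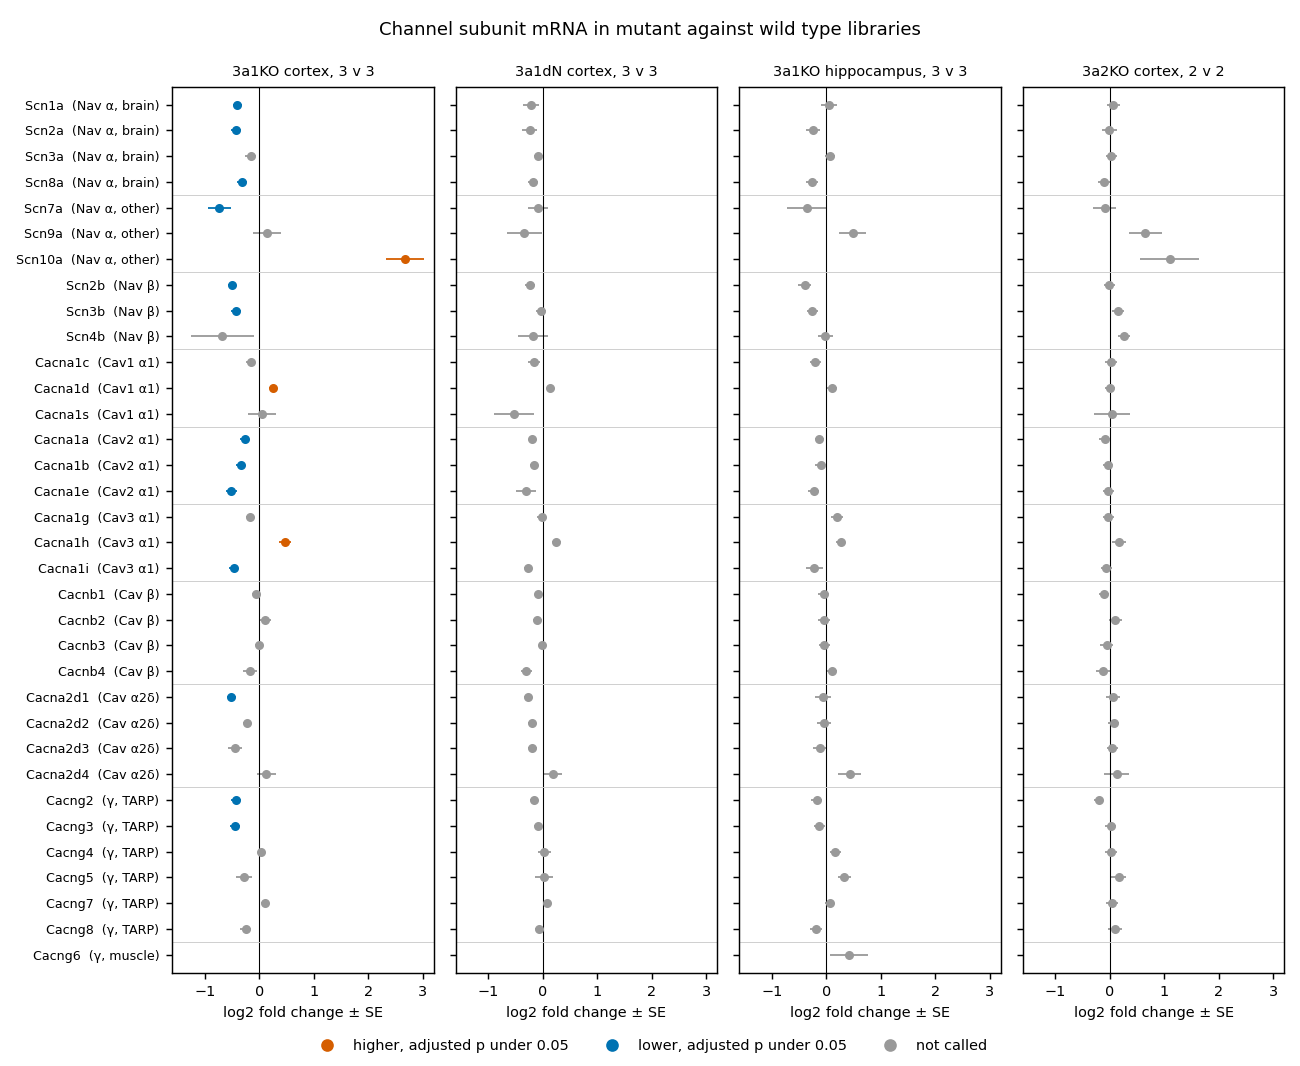
Log2 fold change (x axis) ± SE for members tested (rows, grouped by subunit class; 2 members are not drawn) in 4 mutant against wild type comparisons, with the number of libraries on each side in the panel titles. Blue and orange points passed an edgeR adjusted p of 0.05 and grey points did not. Coloured points are in the panel of Dnmt3a1-/- cortex, where 13 members were lower and 3 higher.

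Among the pore subunits of sodium channels, 3 of the 4 expressed broadly in the central nervous system fell. Scn2a encodes Nav1.2, found at the initial segment and in unmyelinated axons of excitatory neurons, and read 162, 162 and 177 CPM in the mutant libraries against 192, 235 and 241 in the wild type (log2 -0.42 ± 0.09, SE, n = 3 against 3, edgeR adjusted p = 0.0081). Scn1a, for the Nav1.1 pore on which fast-spiking interneurons depend, read 82.6, 84.5 and 93.5 CPM against 101, 118 and 123 (log2 -0.40 ± 0.09, edgeR adjusted p = 0.0088). For both genes every mutant library lay below every wild type library. Scn8a, whose product Nav1.6 is the main channel of the mature initial segment and nodes of Ranvier, gave 199, 229 and 223 CPM against 234, 290 and 285 (log2 -0.32 ± 0.09, edgeR adjusted p = 0.031). Its groups did not overlap either, although the lowest wild type value lay close to the highest mutant one. Scn3a, the Nav1.3 gene that is most active before birth, was not called, at 30.3, 27.7 and 33.9 CPM against 30.8, 35.6 and 36.4.

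The sodium channel genes best known outside the brain moved in both directions. Scn10a encodes Nav1.8, a channel of pain-sensing neurons that resists tetrodotoxin, and it was counted 11, 37 and 32 times in the Dnmt3a1-/- cortex libraries and 6, 4 and 3 times in the wild type. As CPM these are 0.937, 1.41 and 1.21 against 0.245, 0.149 and 0.169, a mean of 1.19 ± 0.24 against 0.188 ± 0.051 (SD, n = 3 each; log2 2.67 ± 0.35, SE, edgeR adjusted p = 0.00041). The lowest mutant library lay well above the highest wild type library, although all 6 libraries held few counts of it. Scn11a, its neighbour on chromosome 9, had 12 counts over the 3 mutant libraries and 7 over the wild type and was not tested. Scn7a, for the sodium-sensing channel Nax of glia and sensory neurons, fell from 2.54, 2.42 and 2.76 CPM to 1.11, 1.79 and 1.56 (log2 -0.73 ± 0.21, edgeR adjusted p = 0.026). Scn9a, for Nav1.7 of sensory and sympathetic neurons, stood near 1 CPM on both sides and was not called.

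Of the 4 sodium channel beta subunits, 2 fell. Scn2b, whose protein is linked to the alpha subunit by a disulphide bond, read 140, 146 and 155 CPM against 196, 208 and 219 (log2 -0.50 ± 0.07, edgeR adjusted p = 0.00076). Scn3b, for a beta subunit that binds without that bond, read 54.7, 53 and 50.9 CPM against 62.2, 70.1 and 78.8 (log2 -0.42 ± 0.09, edgeR adjusted p = 0.0058). Both genes separated the groups fully. For these and the other called members this separation comes from the libraries that the test used and is no further support. Members not called, such as Cacna1c and Cacng7, also separated the groups, and the share over all genes was not computed. Scn4b, for the subunit tied to resurgent current and abundant in striatum, spread over 34.4, 101 and 157 CPM in the mutant libraries against 144, 160 and 170. The summed level of 6 striatal marker genes followed the same order in those mutant libraries, at 174, 284 and 407 CPM, with 311, 346 and 374 in the wild type. What the dissection contributes to Scn4b was not tested.

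All 3 presynaptic Cav2 pore genes fell. Cacna1e, the R-type Cav2.3 gene, read 61.1, 64.1 and 70 CPM against 79.8, 96.4 and 102 (log2 -0.51 ± 0.10, edgeR adjusted p = 0.0041). Cacna1b, for the N-type Cav2.2 channel, read 73.8, 84.4 and 78.6 against 89.5, 109 and 102 CPM (log2 -0.34 ± 0.08, edgeR adjusted p = 0.013). Cacna1a, for the P/Q-type Cav2.1 channel that dominates release at mature synapses, read 144, 154 and 154 CPM against 165, 191 and 188 (log2 -0.27 ± 0.08, edgeR adjusted p = 0.026). No mutant library reached the lowest wild type library for any of them.

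The low-threshold Cav3 genes went separate ways. Cacna1i, the Cav3.3 gene, fell to 85.8, 93.4 and 91.4 CPM from 115, 126 and 132 (log2 -0.47 ± 0.08, edgeR adjusted p = 0.0014). Cacna1h, the Cav3.2 gene, rose to 49, 63 and 54.6 CPM from 35.2, 46.2 and 38.3 (log2 0.48 ± 0.11, edgeR adjusted p = 0.016). Cacna1g, for Cav3.1 of thalamic and cortical bursting cells, was not called (log2 -0.17 ± 0.08). Among the L-type Cav1 genes, Cacna1d, for the Cav1.3 channel that opens at less depolarised potentials, rose slightly, to 60.5, 60.1 and 58.8 CPM from 49.7, 53.6 and 47.2 (log2 0.25 ± 0.07, edgeR adjusted p = 0.019). Cacna1c, the Cav1.2 gene that carries most L-type current in brain, read 24.4, 24.6 and 25 CPM against 25.1, 30.2 and 27.2 and was not called. Cacna1s, the Cav1.1 gene of skeletal muscle, stood near 1 CPM in both groups.

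None of the 4 calcium channel beta genes was called, with log2 differences between -0.17 and 0.11. Cacnb3, for example, read 284, 285 and 256 CPM in the mutant and 284, 276 and 271 in the wild type. Of the alpha2delta genes, which encode the binding sites of gabapentin in the case of Cacna2d1 and Cacna2d2, Cacna2d1 fell to 161, 155 and 179 CPM from 211, 241 and 251 (log2 -0.51 ± 0.09, edgeR adjusted p = 0.0018). Cacna2d3 (log2 -0.44 ± 0.13) and Cacna2d2 (log2 -0.22 ± 0.07) lay just past the threshold, with edgeR adjusted p = 0.051 and 0.052.

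Among the 6 TARP genes, the stargazin gene Cacng2 and its close relative Cacng3 fell. Cacng2 read 49.3, 56 and 60.6 CPM against 68, 76.8 and 79 (log2 -0.43 ± 0.09, edgeR adjusted p = 0.0059), and Cacng3 read 67.1, 80.5 and 69.4 against 86.2, 106 and 102 (log2 -0.44 ± 0.09, edgeR adjusted p = 0.0075). The other 4 TARP genes had log2 differences from -0.28 to 0.10 and were not called. Counts were too low to test 5 members: over the 3 mutant and the 3 wild type libraries they summed to 26 and 18 for Cacna1f, 19 and 9 for Cacng1, 9 and 8 for Cacng6, 12 and 7 for Scn11a, and 7 and 2 for Scn4a.

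**Figure D2:**
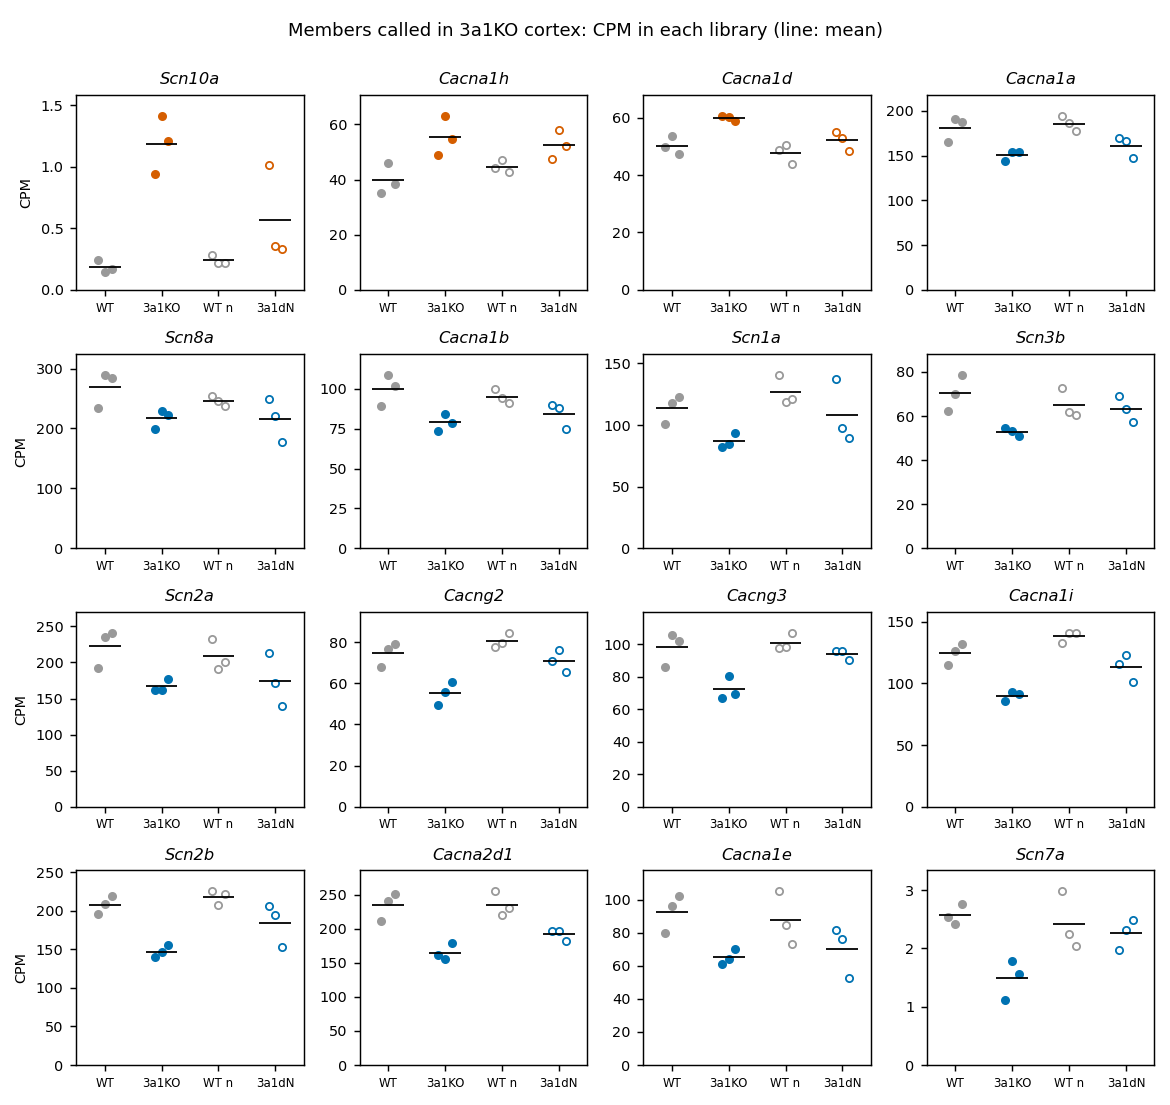
CPM (y axis, from 0) of the 16 members called in Dnmt3a1-/- cortex, 1 point per library with the mean as a line, for the 3a1KO libraries with their wild type (filled) and the 3a1dN libraries with the n series wild type (open). The 3 mutant points of Scn10a stand at 0.937 to 1.41 CPM above wild type points of at most 0.245.

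Leaving out single libraries left 10 of the 16 calls in place each time. The other 6 each lost the call without at least 1 library. Cacna1a, Cacna1b, Cacna1d, Scn7a and Scn8a lost it without 3a1KO library 1, the shallowest of its group at 11.7 M counts, which left 11 members called. Cacna1d, Cacna1h and Scn8a lost it without 3a1KO library 2, and Cacna1h and Scn7a without 3a1KO library 3. Of the wild type, leaving out library 1 ended the call on Cacna1d, library 2 those on Cacna1a, Cacna1b, Scn7a and Scn8a, and library 3 those on Cacna1a, Cacna1d, Cacna1h, Scn7a and Scn8a. The highest edgeR adjusted p over all alternatives was 0.12, for Scn8a. With the replicate number as a block, 22 members were called, the same 16 with Cacna1g, Cacna2d2, Cacna2d3, Cacnb4 and Cacng8 among 6 more, while 31.0% of all genes were called. Against all 8 wild type cortex libraries, Cacna1b and Scn8a lost the call and 4 members gained it. That left 18 called, where 3109 of 16415 genes were. With DESeq2, Scn7a lost the call and 2 members gained it, which left 17 called, where 2512 of 15041 genes were.

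Markers of whole cell classes moved beside these members. General neuronal markers summed to between 3769 and 3837 CPM in the mutant libraries and between 4260 and 4582 in the wild type, and 3 of the 6, Nefl, Syt1 and Tubb3, fell (list median log2 -0.18). Of 7 excitatory neuron markers 3 fell, while their sums overlapped, at 5555 to 6051 CPM against 5867 to 5936. Of 7 inhibitory neuron markers 1, Gad2, fell, and no marker of either list was called higher. Among 7 astrocyte markers Aldh1l1 and Gja1 rose and Aqp4 fell (median log2 0.11). Mbp and Mobp rose among 6 oligodendrocyte markers (median log2 0.11). Choroid plexus markers summed to between 818 and 1994 CPM in the mutant and between 120 and 743 in the wild type, with none of the 6 called, and blood markers to between 337 and 520 against between 521 and 822. Of 6 mural and meningeal markers 3 fell. In uniquely assigned reads, the share outside annotated genes was 10.34% to 10.80% in the mutant libraries and 9.38% to 10.16% in the wild type. The part of these differences in the results for the members was not tested, and in bulk tissue fewer cells of a type and less RNA per cell cannot be told apart.

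Genes whose products bind or regulate these channels were taken from a list of 38 matched symbols. In Dnmt3a1-/- cortex 37 could be tested: 8 fell, 2 rose, and the median was -0.13. The share called, 27%, stood beside 17.9% of all genes tested and 25.4% of those averaging 5 or more in log2 CPM. Of the falls, 3 were among the 7 genes listed for the axon initial segment scaffold: Ank2, Nrcam and Ank3, whose product ankyrin G holds sodium channels there. Ank2 read 599, 591 and 611 CPM against 738, 742 and 833 (log2 -0.37 ± 0.07, edgeR adjusted p = 0.0028), and Nrcam read 283, 274 and 279 against 337, 368 and 371 (log2 -0.37 ± 0.07, edgeR adjusted p = 0.0023). Stac2, an adaptor of L-type channels (log2 -0.44 ± 0.07, edgeR adjusted p = 0.002), and Nalcn, the sodium leak channel (log2 -0.33 ± 0.08, edgeR adjusted p = 0.013), fell as well. Nedd4l, Fgf12 and Erc1 were the remaining falls. Cabp1, a calcium sensor that binds Cav1 and Cav2 channels, rose to 112, 116 and 97.1 CPM from 81.6, 85.6 and 82.3 (log2 0.38 ± 0.07, edgeR adjusted p = 0.0044), and Tspoap1, for the presynaptic RIM-binding protein, rose by a log2 of 0.28 ± 0.08 (edgeR adjusted p = 0.023). The calls on Nalcn and Tspoap1 were lost without some single libraries. None of the 5 RGK-type or related inhibitor genes of calcium channels on the list was called.

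In the Dnmt3a1_delta_N cortex, no member of 34 tested was called, where 0% of 15881 genes were. DESeq2 gave an adjusted p to only 27 members and 7734 genes, and called 0 of those members and 44 of those genes. An unadjusted p under 0.05 was reached by 10 members, and 27 of the 34 differences were negative (median -0.13, all genes 0.00). Cacna2d1 came closest by p, at 197, 197 and 182 CPM against 255, 220 and 231 (log2 -0.28 ± 0.07, edgeR adjusted p = 0.46). Next were Cacna1i, at 116, 123 and 101 CPM against 133, 141 and 141 (log2 -0.27 ± 0.07, edgeR adjusted p = 0.46), and Cacnb4, at 175, 140 and 132 against 196, 178 and 182 (log2 -0.30 ± 0.10, edgeR adjusted p = 0.56). All 3 separated the groups without passing the test, as did other members such as Cacna1a, Cacna1b and Scn2b. These 3 were named for their small p, and the share of all genes that separated the groups was not computed. With the replicate number as a block, Cacna1e was called lower, at 81.9, 76.1 and 52.6 CPM against 105, 84.6 and 73.3 (log2 -0.31, edgeR adjusted p = 0.043, over alternatives 0.043 to 0.99), where 0.542% of all genes were called lower.

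Of the 16 members called in Dnmt3a1-/- cortex, 15 could be tested in 3a1dN, which has its own wild type libraries, and all 15 differences had the same sign, as did 86.5% of all called genes that could be tested there. The 13 members that fell had a median of -0.19 in 3a1dN. Values there included -0.23 ± 0.09 for Scn2b, 0.25 ± 0.08 for Cacna1h and -0.18 ± 0.10 for Scn8a. Scn10a passed no filter in 3a1dN, with 26, 12 and 9 counts against 10, 7 and 6. Its 3 mutant libraries, at 1.01, 0.357 and 0.329 CPM, lay above the wild type range of 0.219 to 0.281, and 1 of them stood far above the other two. The difference between the 2 genotypes was not tested.

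In Dnmt3a2-/- cortex, 0 of 35 members were called by edgeR, with 2 at an unadjusted p under 0.05, and 0.00628% of 15929 genes were called. DESeq2 called 0 members as well. Cacng2 read 89.3 and 94.8 CPM against 105 and 107 (log2 -0.21 ± 0.09), Scn4b 133 and 154 against 109 and 130 (log2 0.26 ± 0.11), and Scn9a 1.06 and 1.09 against 0.58 and 0.775 (log2 0.65 ± 0.31), each with an edgeR adjusted p = 1. Set against the wild type cortex libraries of all 3 series, 8 in all, Cacng2 turned to 0.10 and Scn4b to -0.001. The sign matched that in Dnmt3a1-/- cortex for 12 of the 16 members called there, and for 74% of all called genes. The 13 members that fell there had a median of -0.03 here, with values from -0.21 ± 0.09 for Cacng2 to 0.15 ± 0.11 for Scn3b, and -0.01 ± 0.10 for Scn2b. Scn10a read 0.653 and 0.336 CPM against 0.326 and 0.155, and the 2 groups nearly met. With 2 libraries a side these values do not show that the members were unaltered.

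In Dnmt3a1-/- hippocampus, none of 34 members was called by edgeR, with 6 at an unadjusted p under 0.05, while 2.52% of 15727 genes were called. The median over members was -0.04 (all genes 0.01). DESeq2 called 1 member, Scn2b, lower (DESeq2 adjusted p = 0.037), and 2.03% of all genes lower. Scn2b read 178, 143 and 132 CPM against 161, 204 and 219, so that 1 mutant library lay inside the wild type range (log2 -0.40 ± 0.12, edgeR adjusted p = 0.10). Cacna1h read 205, 201 and 184 CPM against 160, 159 and 166, with no overlap (log2 0.26 ± 0.08, edgeR adjusted p = 0.10). Cacng5, a TARP gene, read 19.2, 18.5 and 17 against 14.4, 16.3 and 11.9 (log2 0.33 ± 0.12, edgeR adjusted p = 0.17). Without wild type library 1, the shallowest of all at 8.7 M counts, Scn2a, Scn2b, Scn3b and Scn8a were called lower, as were 2.68% of 16012 genes.

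The sign in hippocampus matched that in cortex for 14 of the 15 called cortex members that could be tested, and for 94% of all called cortex genes. Scn10a had 2 counts in the mutant and 0 in the wild type hippocampus, too few to test. A direct test of whether the Dnmt3a1-/- effect differed between hippocampus and cortex called none of 36 members and 0% of 15433 genes (edgeR, 4 members at an unadjusted p under 0.05, and 0 members called by DESeq2). The median difference, hippocampus less cortex, was 0.19 over members and 0.00 over all genes, so the absence of calls does not show equal effects. Cacng5 (difference of log2 changes 0.61 ± 0.19, edgeR adjusted p = 0.74), Cacna1g (0.36 ± 0.15) and Cacna2d1 (0.45 ± 0.20) had the smallest p. Cacna2d1 changed by -0.51 in cortex and gave -0.06 ± 0.14 in hippocampus, at 166, 125 and 147 CPM against 114, 161 and 173. Of the partner genes in hippocampus, Tspoap1 rose to 516, 563 and 522 CPM from 312, 340 and 323 (log2 0.69 ± 0.09, edgeR adjusted p = 0.0023). Erc1, an active zone scaffold gene, fell to 87.5, 78.2 and 76.4 from 122, 112 and 109 (log2 -0.53 ± 0.08, edgeR adjusted p = 0.007), a call lost without 1 mutant library (edgeR adjusted p = 0.051). The share of uniquely assigned reads outside genes was 9.69% to 10.30% in the mutant hippocampus and 8.41% to 8.74% in the wild type, and its part in these results was not tested.

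In nuclei labelled Dnmt3a1-/-, 0 of 37 members were called by edgeR, with 2 at an unadjusted p under 0.05, and 0.246% of 15860 genes were. Scn7a read 4.4 and 6.41 CPM against 10.4 and 11.1 (log2 -1.0 ± 0.20, edgeR adjusted p = 0.058). DESeq2 called this gene lower and no other member, and 0.0851% of all genes lower. Scn10a read 7.4 and 3.6 CPM against 2.84 and 1.78 (log2 1.27 ± 0.33, edgeR adjusted p = 0.17), from counts of 289 and 91 against 100 and 63. Scn9a read 9.14 and 12.6 against 13 and 15.4 (log2 -0.39 ± 0.19, edgeR adjusted p = 0.57). For all 3 genes the groups did not overlap, but neither did they for other members, such as Cacna1c, Cacnb2 and Scn3b. With 2 libraries a side such separation is easily reached, and its share over all genes was not computed. Scn7a and Scn10a had changed in the same directions in Dnmt3a1-/- cortex, and both were called in nuclei without library 2 of the labelled mutant, where 2.23% of all genes were. No other single library brought a call. Of the 16 members called in Dnmt3a1-/- cortex, 14 had the same sign in nuclei, as did 71.9% of all called genes tested there. The 13 that fell in cortex had a median of -0.10 in nuclei, and 12 of them were negative, such as Cacna1b (-0.23 ± 0.14), Cacna2d1 (-0.18 ± 0.20) and Scn2b (-0.11 ± 0.16), while Cacna1e was positive (0.13 ± 0.15).

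**Figure D3:**
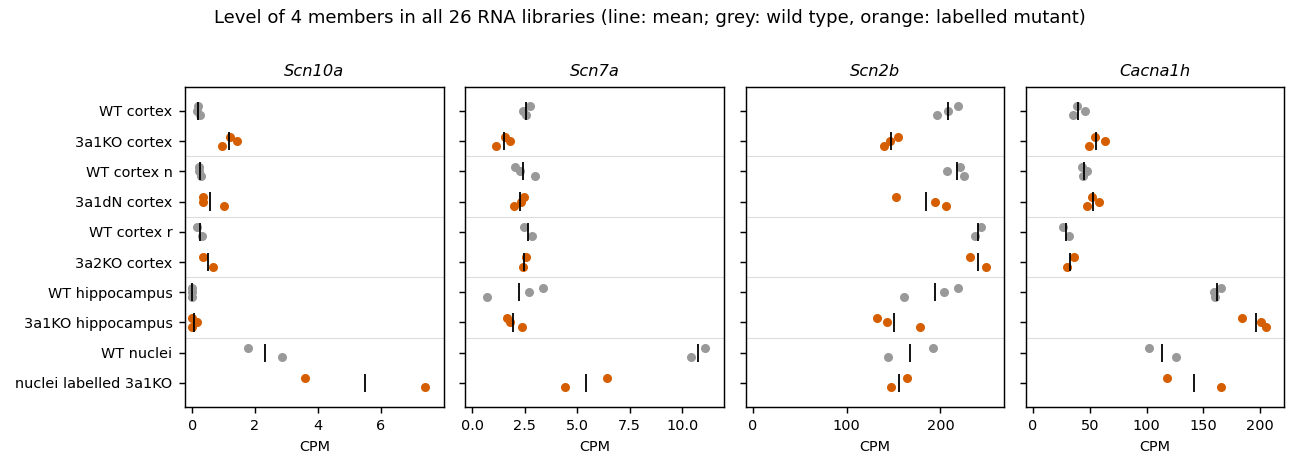
CPM (x axis) of Scn10a, Scn7a, Scn2b and Cacna1h in every RNA library, 1 point per library with the group mean as a line; rows pair each wild type group (grey) with the group labelled mutant (orange). Scn10a is highest in nuclei, at 1.78 to 7.4 CPM, and at or near 0 in hippocampus.

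The wild type libraries show how these subunits are spread over tissues. Hippocampus was compared with the 8 wild type cortex libraries, and 25 of 35 members tested were called, 12 higher and 13 lower, where 42.0% of 15861 genes were called, 21.5% higher and 20.5% lower. The largest falls were in Scn4b, which ran from 10.1 to 15.4 CPM in hippocampus and from 109 to 170 in cortex with a median of 141 (log2 -3.51 ± 0.17, edgeR adjusted p = 9.5e-10), and in Cacng3 (log2 -1.75 ± 0.13). The striatal marker sum was 39.7 to 41.8 CPM in hippocampus and 298 to 386 in cortex, beside the fall in Scn4b, and its part was not tested. Cacnb4 (log2 -1.62 ± 0.16), Scn1a (-1.05 ± 0.18) and Cacng2 (-0.94 ± 0.14) followed.

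Higher in hippocampus were Cacna1c, at 101 to 120 CPM against 24.2 to 30.3 with a median of 26.6 (log2 2.04 ± 0.08, edgeR adjusted p = 1.1e-10), and Cacna1h, at 159 to 166 against 26.5 to 47.1 with a median of 40.5 (log2 2.02 ± 0.14). Cacna1e reached 314 to 350 CPM against 73.3 to 105 (log2 1.83 ± 0.10), and Scn3b (1.78 ± 0.10) and the TARP gene Cacng8 (1.61 ± 0.11) were also higher. In the same comparison the pore genes Cacna1a and Scn2a gave 0.01 ± 0.07 and 0.01 ± 0.14. Of 37 partner genes, 15 were higher, with Stac, Rem2, Fam155a and Rimbp2 leading, and 8 were lower, led by Fgf12, Rims1, Cabp1 and Fgf14. The hippocampus files carry another set of identifiers, in which 35 of the 40 members have a different identifier version, so tissue, library series and gene model cannot be told apart.

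Nuclei differed from whole cortex in most genes: 79.7% of 16625 were called, 39.9% higher and 39.9% lower. Of 36 members tested 32 were called, 24 higher and 8 lower, with a median of 0.64 against -0.03 over all genes. Of the 18 pore genes tested, 17 were higher and none lower: all 8 sodium channel pore genes, all 3 Cav2 genes, all 3 Cav3 genes and 3 of 4 Cav1 genes. Scn9a, at 13 to 15.4 CPM against 0.58 to 1.29 (log2 3.59 ± 0.20, edgeR adjusted p = 1.3e-09), Cacna1d at 273 to 303 against 40 to 53.6 (2.37 ± 0.10), Scn3a (2.14 ± 0.11) and Scn7a (1.84 ± 0.14) were among the highest of the members averaging 1 log2 CPM or more. Scn10a was 3.11 ± 0.29 higher, at 1.78 and 2.84 CPM against 0.149 to 0.326.

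Accessory genes were called in both directions, 7 higher and 8 lower. The 7 were Cacnb1, Cacnb2 (log2 1.49 ± 0.12) and Cacnb4 of the 4 calcium channel beta genes, Cacna2d1 (0.87 ± 0.10) and Cacna2d2 of the 4 alpha2delta genes, Cacng5 of the TARPs, and Scn3b (1.13 ± 0.10). Of the 6 TARP genes 4 were lower, among them Cacng4 (log2 -1.43 ± 0.14), Cacng8 (-1.16 ± 0.13) and Cacng7 (-1.03 ± 0.13). Cacna2d4 ran from 2.73 to 4.4 CPM in cortex and was lower in nuclei, at 0.881 and 1.16 (log2 -2.11 ± 0.22, edgeR adjusted p = 1.1e-06). Scn2b and Cacnb3 were lower too. Of 37 partner genes 17 were higher, including Stac3, Unc80, Rem2 and Unc79, and 16 lower, including Rem1, Fgf13 and Calm3. Glial markers were far lower in nuclei, with astrocyte markers summing to 721 to 734 CPM against 11612 to 16047 in cortex. The neuronal marker sums were not raised. Excitatory neuron markers summed to 3226 to 3231 CPM against 5867 to 6875, and general neuronal markers to 3831 to 4266 against 3977 to 5491. Inhibitory neuron markers summed to 538 to 687 CPM against 575 to 807. The share of uniquely assigned reads outside genes was 27.99% to 29.08%, above the cortex range. Cell type, compartment and library series cannot be told apart here.

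**Figure D4:**
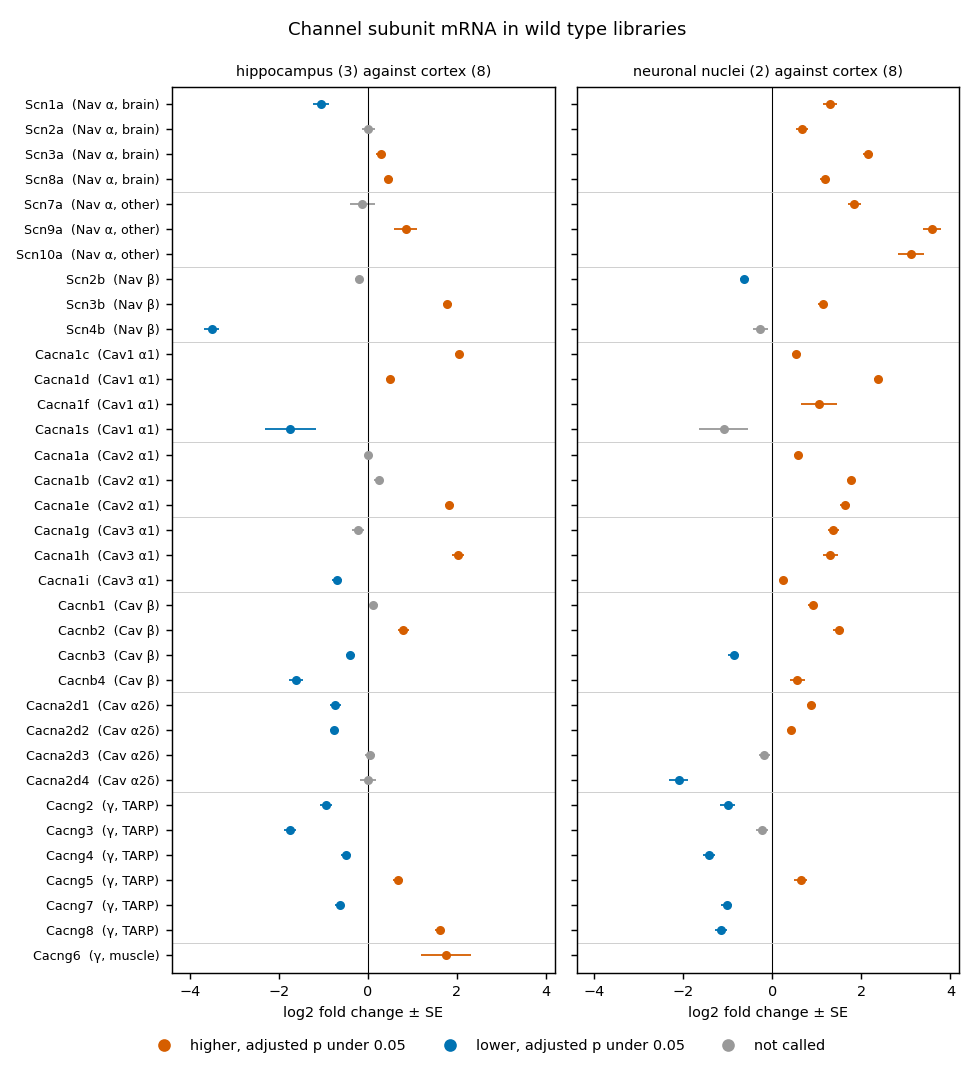
Log2 fold change (x axis) ± SE for members tested (rows, grouped by subunit class; 2 members are not drawn) in wild type hippocampus and wild type neuronal nuclei, each against 8 wild type cortex libraries. In nuclei the called pore genes drawn all lie to the right of 0, and most of the TARP genes lie to the left.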

How the data were processed

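RNA was sequenced from TruSeq stranded mRNA libraries, per the labels' protocols. The deposited values are whole-number counts of reads per gene, made with STAR 2.5.4a, HTSeq 0.11.0 and mm9 per the submitters' processing notes; annotation release and strand setting are not given in the sources used here, so overlapping genes and close paralogs may share reads. Lines that name no gene held 21.14% to 36.97% of reads and were left out. Symbols came from a gene name table, and 38 of 39 partner symbols matched. Promoter sequences are RefSeq's, on GRCm38.p6.

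Each comparison was fitted on its own groups over all genes with edgeR 4.0.16 (filterByExpr, TMM, robust quasi-likelihood F-test, Benjamini-Hochberg adjustment, R 4.3.3), which was tested on simulated data. Alternatives were RLE size factors, no filter, DESeq2 1.42.0, a replicate block, other wild type controls and leaving out each library. In the comparisons between tissues only hippocampus or nuclei libraries were left out, and all cortex libraries were kept. Named were all called members, else the 3 of smallest p; between tissues, 5 per direction of mean log2 CPM at least 1; of partners, 4 per direction. Members named beyond that were chosen after their values were seen. The members and lists were chosen with earlier results of these data known. Deviations of same-numbered libraries correlated at 0.237, 0.376 and 0.184 in 3a1KO cortex and 0.373, 0.240 and 0.419 in 3a1dN. From these values and not the labels, numbers there were taken to pair libraries. The main fits did not use this pairing, and it entered only through the replicate block among the alternatives. The other 49 samples are not used here. Some members and partners that these rules name are not reported here.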

Additional observations from a re-analysis of the deposited data

How the results depend on the processing

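Member counts in Dnmt3a1-/- cortex ran from 11 to 19 with single libraries left out, where 1599 to 2725 of all genes were called. For wild type hippocampus set against cortex they ran from 22 to 23, where 5173 to 5820 of all genes were called. There only hippocampus libraries were left out, so the 2 ranges are not alike. Of 176 alternative values for members called in Dnmt3a1-/- cortex, 153 kept direction and call, 23 lost the call and none reversed. In 3a2KO, the 8 wild type controls turned Cacng2 to 0.10 and Scn4b to -0.001.

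With the replicate block, genes called higher and lower numbered 2398 and 2543 in Dnmt3a1-/- cortex, 46 and 9 in 3a2KO, 33 and 86 in 3a1dN, and 452 and 288 in nuclei, and 59 were lower in hippocampus. Members called with the block were 1 in 3a1dN and 3 in nuclei (Scn10a, Scn7a and Scn4b). In hippocampus, same-numbered deviations correlated at -0.056, 0.272 and 0.026. They correlated at 0.111 in 3a2KO and at 0.297 in nuclei. With 2 libraries a side the deviations mirror each other, so each of these is a single value and cannot settle whether numbers pair libraries. Numbers were not taken to pair libraries in 3a2KO, hippocampus or nuclei.

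Without the filter on low counts, higher and lower genes numbered 60 and 4 in 3a2KO, 6 and 11 in 3a1dN, 606 and 433 in hippocampus (1 member), 172 and 71 in nuclei (2 members), and 3 were lower for the difference of effects. DESeq2 called 7 higher in 3a2KO, 15 and 29 in 3a1dN, 302 lower in hippocampus (1 member), 56 and 14 in nuclei (1 member), and 2 lower for the difference. The 8 wild type libraries gave 2 higher in 3a2KO. Leaving out 1 library gave 844 to 1158 higher and 755 to 1592 lower in Dnmt3a1-/- cortex, 13 to 79 and 0 to 62 in 3a2KO, and 0 to 1 each way in 3a1dN. It gave 72 to 354 and 14 to 429 in hippocampus (0 to 4 members), and 2 to 228 and 2 to 136 in nuclei (0 to 2 members), where a lone library was assumed to vary like the other group. The causes were not tested. Precision is limited by 2 or 3 libraries a group and, for Scn10a, by few counts.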
